A study of Mus musculus with 7 samples.

Results

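The genes Slc17a7, Slc17a6 and Slc17a8 encode the vesicular glutamate transporters VGLUT1, VGLUT2 and VGLUT3. They were found by matching the Ensembl IDs of the deposited table to their mouse symbols in GENCODE M21, and all 3 had a row among 39017 gene IDs. All 3 passed the filter on low counts. Sequencing was done on RNA of mouse hippocampus after translating ribosome affinity purification (TRAP), in which ribosomes carrying a tagged protein are pulled down together with the RNA they hold. The 3 bound libraries were made from the RNA that came down with tagged ribosomes, and the 4 unbound libraries from the RNA left behind. Per the study's design text, the mice came from GAD2 cre+ animals crossed with L10-EGFP+ animals, with no other genotype given for either group, so Cre made under control of the Gad2 gene switches on the EGFP-tagged ribosomal protein in cells that have expressed Gad2, which marks GABAergic neurons. Each TRAP sample pooled 2 hippocampi, and neither age, sex nor strain is given in the labels. The bound libraries have titles of the form GAD_ctrl. Titles of unbound replicates 1 and 2 start with UBS and those of replicates 3 and 4 with UBGS, 2 series that the labels do not explain. The labels do not say that libraries came from separate animals, and the p-values then cover only the spread among these 7 libraries, which may in part be technical.

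Vesicular glutamate transporters sit in the membrane of synaptic vesicles and load them with glutamate, using the proton gradient that the vesicular proton pump sets up. In the mouse forebrain VGLUT1 is the transporter of most excitatory neurons of cortex and hippocampus, and VGLUT2 that of thalamic and many other subcortical excitatory neurons. VGLUT3 is known from neurons that release another transmitter as well, among them cholecystokinin (CCK) interneurons of the hippocampus, serotonin neurons of the raphe and cholinergic interneurons of the striatum.

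On mm10, Slc17a7 (ENSMUSG00000070570) lies on the plus strand of chromosome 7 from 45163949 to 45176142, and Slc17a6 (ENSMUSG00000030500) on the plus strand of chromosome 7 from 51622006 to 51671119. Slc17a8 (ENSMUSG00000019935) lies on the minus strand of chromosome 10 from 89574020 to 89621253. All 3 are protein-coding, counts are over their exons, and none of their exon bases is shared with another annotated gene on either strand.

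Because the 3 genes are copies of 1 ancestral gene, reads could in principle be assigned to the wrong one, and the following stretches show how far their coding sequences differ. They are the 120 bases over which the coding sequences of the principal GENCODE M21 transcripts are most alike, given 5′ to 3′ on the coding strand, and capitals mark the 90 bases (75.0%) that all 3 share. The stretch starts at coding base 1231 in Slc17a6, 1207 in Slc17a7 and 1282 in Slc17a8.
Slc17a7: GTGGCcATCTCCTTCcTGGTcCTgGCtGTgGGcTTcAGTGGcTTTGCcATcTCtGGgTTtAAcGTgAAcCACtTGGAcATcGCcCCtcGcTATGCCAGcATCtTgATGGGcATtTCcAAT
Slc17a6: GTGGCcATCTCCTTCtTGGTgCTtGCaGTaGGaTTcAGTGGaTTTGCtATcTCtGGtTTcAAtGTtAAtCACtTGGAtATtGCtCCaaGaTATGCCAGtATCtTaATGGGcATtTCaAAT
Slc17a8: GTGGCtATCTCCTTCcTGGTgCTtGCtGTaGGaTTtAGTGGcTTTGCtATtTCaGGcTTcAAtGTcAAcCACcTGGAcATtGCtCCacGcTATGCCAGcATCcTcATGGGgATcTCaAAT

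Even in this stretch most of the differing bases recur every few positions. The longest run identical between Slc17a8 and Slc17a6 was 25 bases, TCATGAGCGGCCTCGGCTTCTGCAT, and the longest between Slc17a6 and Slc17a7 was 21 bases, AACCTGGGCGTGGCCATCGTG. Between Slc17a8 and Slc17a7 it was 17 bases, GGTTCCTATGCTGGGGC. No stretch of 50 bases was shared between the annotated transcripts of any pair. Over the whole coding sequence, identity was 71.6% between Slc17a6 and Slc17a7, 69.2% between Slc17a8 and Slc17a7 and 70.6% between Slc17a8 and Slc17a6. The read length is not given in the sources used here.

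Library totals ranged from 38690380 to 51953811 counts. Mitochondria-encoded RNA took 0.0867% to 0.123% of counts in bound libraries and 28.5% to 32.9% in unbound libraries, and Gm42418, which overlaps ribosomal RNA sequence, took 11.3% to 15.4% and 3.95% to 6.02%. Levels below are CPM (each gene's share of a library's counts, scaled by a fixed factor) on TMM-scaled library sizes, and differences are log2 bound minus unbound. Gad2, the gene that drives the Cre, stood at 756, 722 and 759 CPM in bound libraries and at 190, 182, 112 and 114 CPM in unbound libraries. Of 19563 genes tested with edgeR's quasi-likelihood test, 61.7% passed an adjusted p of 0.05, 31.0% higher and 30.7% lower in bound libraries, so that a call by itself is common in this comparison. For 63.3% of genes the ranges of the groups were separate.

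The 3 transporter genes did not move together. Slc17a7 and Slc17a6 fell in the bound libraries and Slc17a8 rose. In bulk RNA, fewer cells of a type, less RNA per cell and less of that RNA held by tagged ribosomes cannot be told apart. This holds for every difference below.

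Slc17a7 had 834, 807 and 774 counts in bound replicates 1 to 3, against 17887, 20850, 22268 and 19757 counts in unbound replicates 1 to 4. On the CPM scale these were 14.3, 12.9 and 17.6 CPM in bound libraries and 526, 487, 523 and 488 CPM in unbound libraries. The groups lay far apart and the libraries within each were close, with the highest 1.36 times the lowest in bound and 1.08 times in unbound libraries. The difference was −5.09 on the log2 scale (SE 0.12, edgeR adjusted p = 1.79e-10), and only 270 of the 19563 genes tested had a lower one. Slc17a7 was nonetheless still read at least 774 times in every bound library.

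Slc17a6 had 233, 77 and 18 counts in bound replicates 1 to 3, against 355, 471, 735 and 747 counts in unbound replicates 1 to 4. These were 3.99, 1.23 and 0.408 CPM in bound libraries and 10.4, 11.01, 17.3 and 18.5 CPM in unbound libraries. All bound libraries lay below all unbound ones, but the bound libraries differed 9.77-fold among themselves, replicate 1 being the highest. The unbound libraries split by title series, with 10.7 CPM on average in the 2 UBS and 17.9 CPM in the 2 UBGS libraries, a difference that was not tested. The difference was −2.90 on the log2 scale (SE 0.59, edgeR adjusted p = 0.00201). Without bound replicate 1 the difference was −4.06 (SE 0.44, edgeR adjusted p = 4.1e-05).

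Slc17a8 had 554, 657 and 279 counts in bound replicates 1 to 3, against 121, 61, 97 and 94 counts in unbound replicates 1 to 4. These were 9.49, 10.5 and 6.33 CPM in bound libraries and 3.56, 1.43, 2.28 and 2.32 CPM in unbound libraries. The groups did not overlap, and the lowest bound library was still above the highest unbound one, replicate 1. Slc17a8 was 3.68-fold higher in bound libraries (log2 1.88, SE 0.29, edgeR adjusted p = 0.000179), and 1037 of the genes tested had a larger rise. In 16 other settings the log2 difference ranged from 1.71 to 2.33 and the adjusted p reached 0.0054 at most.

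**Figure D1:**
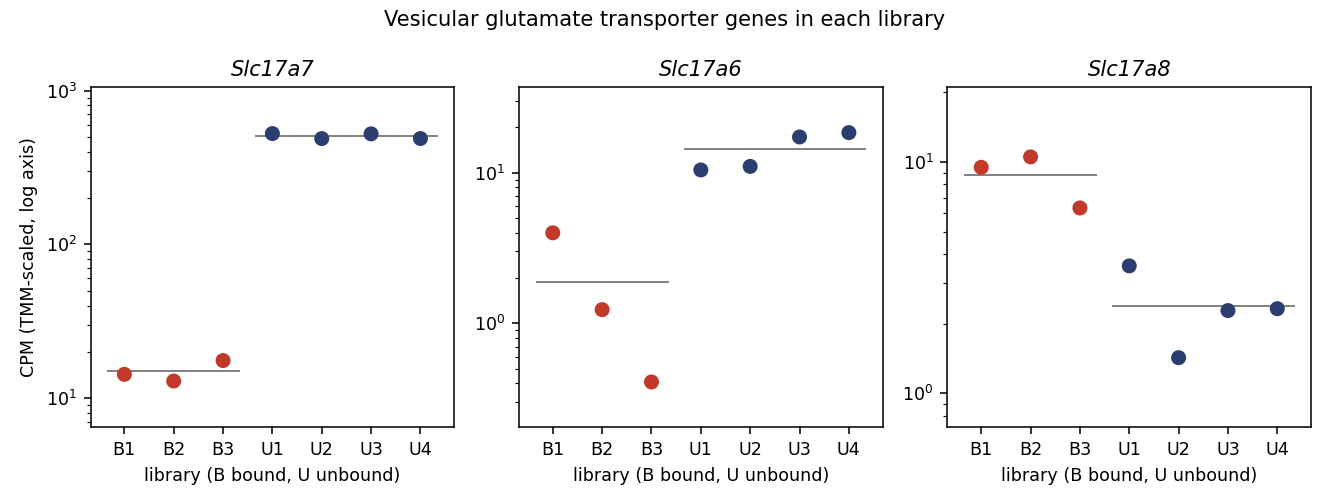
CPM of Slc17a7, Slc17a6 and Slc17a8 in each library (points; B1 to B3 bound, U1 to U4 unbound; grey lines are group means; log axes that differ between panels). Slc17a7 and Slc17a6 are lower in all bound libraries and Slc17a8 is higher, and Slc17a6 spreads from 0.408 to 3.99 CPM among the bound libraries.

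The ratio of 2 members inside a library needs no scaling between libraries. For each bound replicate in turn, 0.664, 0.814 and 0.360 Slc17a8 counts were found per Slc17a7 count, against 0.00676, 0.00293, 0.00436 and 0.00476 in the unbound libraries. The ratio of Slc17a8 to Slc17a7 was thus 128-fold higher in bound libraries (log2 7.002; exact permutation test over 35 assignments of the libraries, two-sided, p = 0.0286, the smallest that the design allows; Benjamini-Hochberg adjusted over 3 ratios, 0.0429). The ratio of Slc17a8 to Slc17a6 was 2.38, 8.53 and 15.5 in bound libraries and 0.341, 0.130, 0.132 and 0.126 in unbound libraries. That was a 40.7-fold difference (log2 5.35; exact permutation p = 0.0286, adjusted 0.0429), so the 2 genes stood in opposite order of counts in the groups. The ratio of Slc17a6 to Slc17a7 was 0.279, 0.0954 and 0.0233 in bound libraries and 0.0198, 0.0226, 0.0330 and 0.0378 in unbound libraries. These overlapped, and their difference (log2 1.66) did not pass (exact permutation p = 0.114, adjusted 0.114). With 1 library left out it ranged from 0.81, without bound replicate 1, to 2.58, without bound replicate 3.

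Levels of the 3 genes were compared with each other per kilobase of their principal transcript, which is 2915 bases long for Slc17a7, 4137 for Slc17a6 and 4456 for Slc17a8. In bound libraries Slc17a7 led at 5.12 ± 0.818 CPM per kb (SD, n = 3), followed by Slc17a8 at 1.97 ± 0.490 and Slc17a6 at 0.454 ± 0.453 CPM per kb. In unbound libraries Slc17a7 led at 174 ± 7.27 CPM per kb (SD, n = 4), followed by Slc17a6 at 3.45 ± 1.005 and Slc17a8 at 0.538 ± 0.197 CPM per kb. Neighbours in these orders did not overlap between libraries of 1 group. Slc17a8 therefore made up 26.6%, 33.3% and 18.8% of the summed level per kb of the 3 genes in bound libraries, against 0.435%, 0.188%, 0.278% and 0.302% in unbound libraries. Slc17a7 remained the largest part in every library, at 61.3% to 79.9% in bound and 97.1% to 98.2% in unbound libraries. Its bound level was 0.029 of its unbound level. For Neurod6 and Spink8, the largest falls of the general excitatory and CA pyramidal lists below, that fraction was 0.014 and 0.035. It was 0.059 for Sv2b. For the 2 most abundant genes of each of these lists it was 0.24 (Camk2a), 0.20 (Hpca), 1.11 (Mpped1) and 0.70 (Wfs1). How much of the bound Slc17a7 came from cells with tagged ribosomes was not tested. The parts given here are therefore those of a library and not of the Gad2 cells. The summed level was 7.54 ± 0.450 CPM per kb in bound and 178 ± 7.34 CPM per kb in unbound libraries. With all annotated exons merged as the length, 5392 bases for Slc17a7, Slc17a8 made up 28.7% to 45.9% in bound libraries and the orders were the same.

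**Figure D2:**
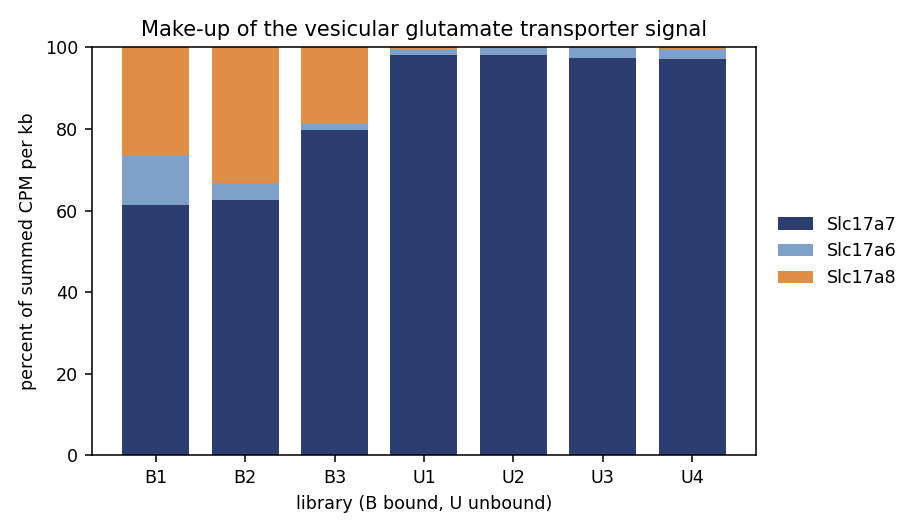
Percent of the summed CPM per kb of principal transcript that each of the 3 genes takes in each library (stacked bars; B1 to B3 bound, U1 to U4 unbound). Slc17a8 takes 18.8% to 33.3% in bound libraries and at most 0.435% in unbound libraries.

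Slc17a7 can be set beside other genes of excitatory neurons. Of 10 general excitatory genes, all 10 were lower in bound libraries, with a median log2 difference of −3.21, where the median of all genes tested was −0.01. Neurod6, a transcription factor of excitatory neurons, had the largest fall (2.02, 3.76 and 4.70 CPM in bound against 233, 241, 255 and 250 CPM in unbound libraries, log2 −6.15, SE 0.23). Camk2a, which encodes a calcium-dependent kinase of excitatory synapses, was at 810, 930 and 726 CPM in bound and at 4754, 3474, 2796 and 2682 CPM in unbound libraries (log2 −2.06). Hpca, the calcium sensor hippocalcin, stood at −2.35. Sv2b is a vesicle glycoprotein known to accompany VGLUT1 in many excitatory terminals. It fell to 26.5, 26.6 and 18.8 CPM in bound libraries, against 447, 424, 366 and 384 CPM in unbound libraries, a log2 difference of −4.08 (SE 0.14).

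Genes of the hippocampal fields were mostly lower as well. Of 10 CA pyramidal genes, 8 were lower and none higher (median −1.97), with Spink8 at −4.82 and Wfs1 at −0.51, a call lost with library totals (−0.07), with the UBS libraries alone (−0.39), against a minimum of 1.5-fold and without bound replicate 1 or 3 (−0.38 and −0.43). Mpped1 did not pass (log2 0.15, and 0.57 with library totals, where it was called higher). Of 10 genes of dentate granule and mossy cells, 8 were lower (median −2.56), among them C1ql2, a secreted protein of mossy fibres, at −5.29 (0.274, 0.112 and 0.907 CPM in bound libraries; −6.34 without bound replicate 3) and Prox1, a granule cell transcription factor also made by some interneurons, at −2.06. The 2 higher ones were the dopamine receptor gene Drd2 (log2 4.33) and Calb2 (calretinin, 2.00, named because it is the remaining one), both known from GABAergic cells as well.

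By the likeness of profile over the 7 libraries (root mean square difference of log2 CPM centred on each gene's mean), the 3 genes nearest to Slc17a7 among 10182 protein-coding genes were Dcn (0.11), Nrn1 (0.16) and Ankrd33b (0.18), where the median gene stood at 2.54. Dcn, decorin of meningeal and vascular fibroblasts, was at 0.942, 0.753 and 1.09 CPM in bound libraries and at 35.6, 37.1, 37.9 and 37.2 CPM in unbound libraries. Nrn1 encodes neuritin, an activity-regulated protein of neurons (4.999, 5.83 and 5.47 CPM in bound against 181, 165, 198 and 193 CPM in unbound libraries).

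Slc17a6 was read against lists for the cell types in which it is known. Cajal-Retzius cells are early-born glutamatergic cells at the hippocampal fissure, and of their 9 listed genes, 8 were tested, 4 were higher and 2 lower (median log2 1.20; summed level 404 to 448 CPM in bound and 68.2 to 74.2 CPM in unbound libraries). The 2 lower ones, Trp73 (0.171, 0.192 and 0.113 CPM in bound against 2.14, 1.47, 3.88 and 2.77 CPM in unbound libraries, log2 −3.97) and Nhlh2 (log2 −3.55, named because the count is small), encode transcription factors. The higher ones included Reln (log2 2.96) and Cacna2d2 (2.76), a reelin and a calcium channel subunit gene that GABAergic cells also express. Of 8 subiculum genes, 5 were lower and 1 higher (median −2.26; summed level 42.0 to 117 CPM in bound and 321 to 331 CPM in unbound libraries), and the most abundant were Tshz2 (−4.48) and Rorb (−4.03, and −4.70 without bound replicate 1). Of 10 thalamus genes, 9 were tested, 3 were higher and 5 lower (median −0.75; summed level 136 to 167 CPM in bound and 119 to 125 CPM in unbound libraries). Lhx9 fell most (0.291, 0.144 and 0.272 CPM in bound against 12.5, 15.6, 17.1 and 16.4 CPM in unbound libraries, log2 −6.04), Ptpn3 was lower (−0.75), and Prkcd (3.12) and Tnnt1 (3.27; 2.58 with the UBS and 4.54 with the UBGS libraries alone) were higher.

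Among the bound libraries Slc17a6 was highest in replicate 1 and lowest in replicate 3. This order held for 3 of the 8 tested subiculum genes, 3 of the 8 Cajal-Retzius genes and 1 of the 9 thalamus genes, against 15.8% of all genes tested. Other lists ran from 0 of 10 GABAergic genes to 3 of 10 CA pyramidal, 2 of 6 oligodendrocyte and 2 of 3 cholinergic genes. The order did not hold for Tshz2 (7.64, 6.31 and 11.2 CPM in bound libraries), Rorb (6.27, 1.78 and 2.84 CPM) or Tnnt1 (5.82, 5.20 and 9.94 CPM). The genes given next were chosen, after their values were seen, because they have that order. Dlk1 and Nts are among the subiculum genes counted above, and Isl1 and Lhx8 among the cholinergic genes. Dlk1, an imprinted gene encoding a membrane protein, stood at 63.7, 32.6 and 12.5 CPM in bound replicates 1 to 3, against 10.0, 15.9, 11.6 and 11.8 CPM in unbound libraries (log2 1.56, edgeR adjusted p = 0.014, a call lost with no low-count filter, with either unbound title series alone and without unbound replicate 3 or 4). Without bound replicate 1 it was 0.88. Nts, the neurotensin gene, named after its values were seen, stood at 14.8, 3.03 and 0.363 CPM in bound libraries, against 1.35, 1.92, 3.55 and 2.84 CPM in unbound libraries, and did not pass (log2 1.33, edgeR adjusted p = 0.22); it passed without bound replicate 3 (1.88) and stood at −0.49 without bound replicate 1. Isl1 and Lhx8 are transcription factor genes of basal forebrain and striatal cholinergic and other ventral neurons. Isl1 was at 9.14, 5.06 and 1.34 CPM and Lhx8 at 2.79, 1.62 and 0.363 CPM in bound replicates 1 to 3, and both had 0 counts in all 4 unbound libraries, where 3 counts would be 0.0701 to 0.0881 CPM. Their part in the level of Slc17a6 in bound replicates 1 and 2 was not tested.

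**Figure D3:**
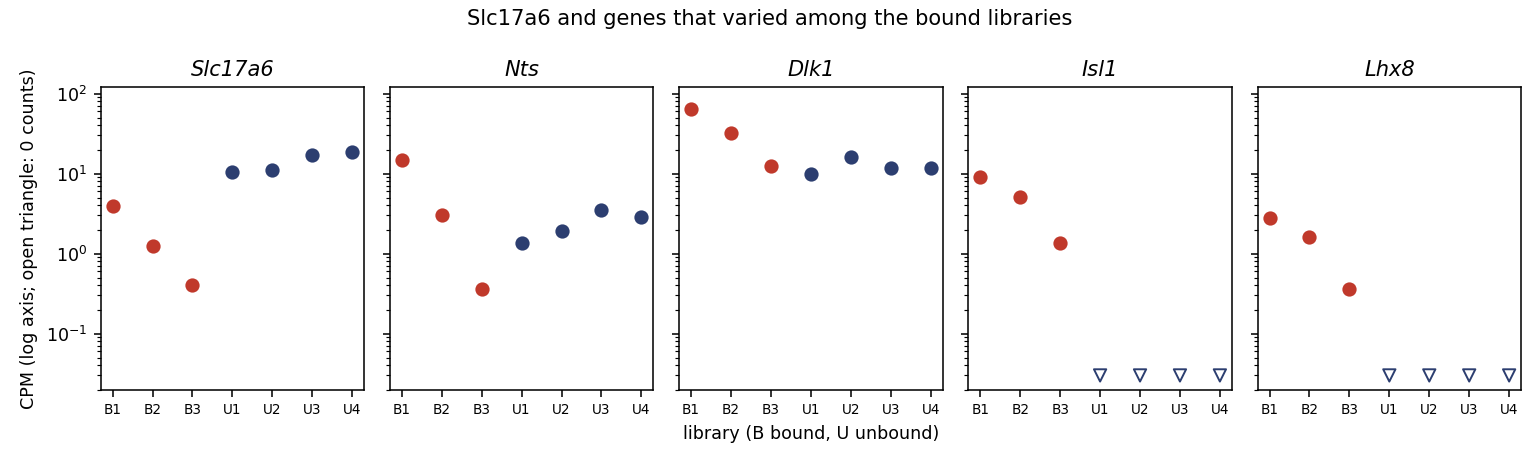
CPM of Slc17a6, Nts, Dlk1, Isl1 and Lhx8 in each library (log axis; B1 to B3 bound, U1 to U4 unbound; open triangles stand for 0 counts). The genes beside Slc17a6 were chosen for this order: in all 5 panels bound replicate 1 is the highest and bound replicate 3 the lowest of the bound libraries, and Isl1 and Lhx8 had 0 counts in the unbound libraries.

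The nearest profiles to Slc17a6 were those of Fam19a1 (root mean square difference 0.40), C2cd4c (0.54) and Bmp7 (0.61), where the median gene stood at 1.92. Fam19a1, a secreted protein gene, was at 13.9, 8.41 and 3.18 CPM in bound libraries and at 62.8, 64.4, 67.9 and 70.6 CPM in unbound libraries. Bmp7, a bone morphogenetic protein gene, was at 3.29, 1.83 and 0.499 CPM in bound libraries and at 10.5, 10.9, 7.92 and 8.37 CPM in unbound libraries. In all 3, as in Slc17a6, bound replicate 1 was the highest and replicate 3 the lowest bound library. These genes were picked for likeness over the same libraries, so the shared order comes largely from that choice and is no separate result.

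Slc17a8 was read beside GABAergic and CCK interneuron genes. All 10 GABAergic genes were higher in bound libraries (median log2 3.52), with the largest rise in Dlx6, a transcription factor gene of the GABAergic lineage (4.69). The log2 difference of Slc17a8 (1.88) was smaller than that of each of the 10. Slc32a1, which loads GABA into vesicles and is thus the counterpart of the glutamate transporters, stood at 248, 217 and 246 CPM in bound libraries and at 16.2, 16.1, 15.5 and 14.2 CPM in unbound libraries, a log2 difference of 3.94 (SE 0.08).

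Of 10 CCK interneuron genes, 8 were higher and 1 lower (median log2 2.60). Cnr1, the CB1 cannabinoid receptor of CCK basket cell terminals, was at 560, 552 and 627 CPM in bound and at 152, 164, 167 and 170 CPM in unbound libraries. Its log2 difference (1.83, SE 0.07) was close to that of Slc17a8. Sncg, a synuclein of this cell class, had the largest rise (4.72), and Npy1r, a neuropeptide Y receptor, was lower (−0.91). Cck itself, which hippocampal pyramidal cells also express, stood at 295, 263 and 338 CPM in bound and at 95.6, 103, 253 and 227 CPM in unbound libraries. It did not pass (log2 0.82, edgeR adjusted p = 0.089), and its unbound levels split by title series. Against the UBS libraries alone Cck was called higher (log2 1.59), and also against the UBGS libraries alone (0.33). The same held with library totals (1.24) and without unbound replicate 3 (1.09). In the remaining settings Cck did not pass, and with a length offset it stood at 0.16. Per kb of principal transcript, Slc17a8 in bound libraries (1.97 CPM per kb) was low beside Cnr1 (99.8 ± 7.03), Slc32a1 (84.8 ± 6.22) and Cck (382 ± 48.1 CPM per kb; SD, n = 3).

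Serotonin and cholinergic neurons, the other classes known for VGLUT3, were read by lists of 6 genes each. Of 6 serotonin neuron genes, 3 were tested. The serotonin transporter gene Slc6a4 had 0 counts in the bound libraries and at most 0.124 CPM in an unbound one, Fev and En1 reached at most 0.0588 CPM in any library, and Tph2 stood at 1.18, 0.608 and 1.25 CPM in bound and 0.323, 0.421, 1.27 and 1.24 CPM in unbound libraries. Slc18a2, the vesicular monoamine transporter, did not pass (log2 0.19, and 0.62 with library totals, where it was called higher), and Gchfr, a regulator of tetrahydrobiopterin synthesis, was higher (0.753, 0.560 and 0.590 CPM in bound against 0.411, 0.140, 0.0705 and 0.173 CPM in unbound libraries, log2 1.69). Gchfr did not pass with the length offset (0.69), with the UBS libraries alone (1.21), against a minimum of 1.5-fold, and without bound replicate 1 or 3 or unbound replicate 2, 3 or 4 (1.41 to 1.74), and stood at 2.31 without unbound replicate 1. The summed level of the list ran from 8.94 to 10.96 CPM in bound and from 7.55 to 8.65 CPM in unbound libraries, most of it Slc18a2.

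Of the 6 cholinergic genes, 3 were tested, Slc5a7, Lhx8 and Isl1, and all 3 were higher in bound libraries. Slc5a7, the choline transporter, stood at 2.12, 2.29 and 1.66 CPM in bound and 0.176, 0.0701, 0.423 and 0.395 CPM in unbound libraries, a log2 difference of 2.91 (SE 0.52; 4.05 with the UBS and 2.32 with the UBGS libraries alone). Chat, which makes acetylcholine, was at 0.719, 1.04 and 0.0907 CPM in bound libraries and at most 0.0988 CPM in an unbound one, and Gbx1 was at most 0.384 CPM in any library; neither was tested, and for both the groups overlapped. The summed level ran from 3.45 to 14.9 CPM in bound and from 0.0701 to 0.728 CPM in unbound libraries. Bound replicate 2 was the highest bound library and replicate 3 the lowest for Slc17a8, Slc5a7, Chat and Gbx1. Isl1 and Lhx8, both higher in bound libraries, were not highest in replicate 2. This order was picked out after the values were seen, and the share of all genes that have it was not counted. Few reads lie behind part of it: Gbx1 had 9, 24 and 0 counts in bound replicates 1 to 3, and Chat had 4 counts in replicate 3. In bound replicate 3, where Slc17a8 stood at 6.33 CPM, Chat was at 0.0907, Isl1 at 1.34, Lhx8 at 0.363 and Slc5a7 at 1.66 CPM. The part of cholinergic cells in the level of Slc17a8 was not tested.

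Astrocyte and oligodendrocyte genes were mostly lower in bound libraries and microglia genes higher. Of the 6 genes listed for astrocytes, 5 fell and none rose (summed level 227 to 249 CPM in bound and 1900 to 2812 CPM in unbound libraries), with Aldh1l1 at −4.71. All 6 oligodendrocyte genes were lower (329 to 403 CPM in bound and 1189 to 1376 CPM in unbound libraries). All 6 microglia genes were higher (149 to 454 CPM in bound and 55.3 to 77.4 CPM in unbound libraries), with C1qa at 2.82, and bound replicate 2 was the highest for each. Slc17a8 was also highest in that library, by a small margin (10.5 CPM against 9.49 CPM in bound replicate 1). The share of all genes highest there was not counted. Without bound replicate 2 the log2 difference of Slc17a8 was 1.73 (edgeR adjusted p = 0.00098).

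The nearest profiles to Slc17a8 were those of Astn2 (root mean square difference 0.29), Zfp521 (0.30) and Lrrc3 (0.31), where the median gene stood at 1.02. Astn2, astrotactin 2, was at 37.2, 38.6 and 32.1 CPM in bound and at 15.01, 10.4, 11.1 and 10.99 CPM in unbound libraries. Zfp521, a zinc finger transcription factor gene, was at 48.8, 42.7 and 22.8 CPM in bound and at 15.9, 10.4, 10.7 and 9.90 CPM in unbound libraries. For both, bound replicate 3 was the lowest bound library, as it was for Slc17a8. Here too the genes were picked for likeness over the same libraries, so this is no separate result.

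**Figure D4:**
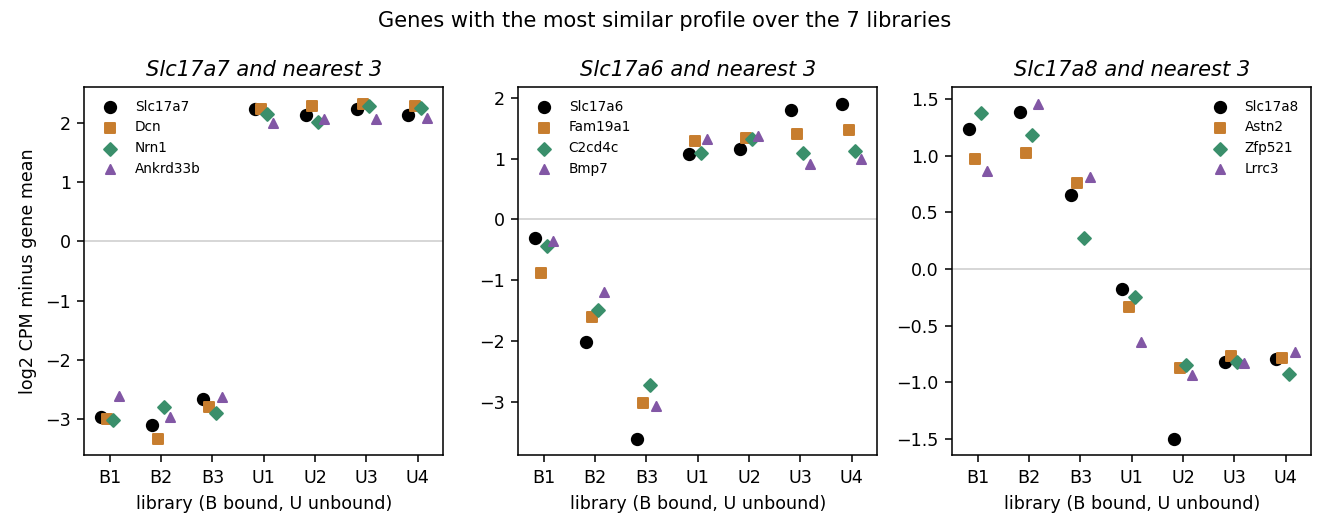
Log2 CPM minus the gene's mean over the 7 libraries for each transporter gene (black circles) and the 3 protein-coding genes with the most similar profile (B1 to B3 bound, U1 to U4 unbound). The genes nearest to Slc17a7 differ from it by a root mean square of 0.11 to 0.18, those nearest to Slc17a6 by 0.40 to 0.61.

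Among the remaining members of the Slc17 family, Slc17a5, which encodes the lysosomal and vesicular transporter sialin, was the only one with enough counts to be tested. It stood at 12.2, 12.4 and 10.0 CPM in bound and at 19.7, 17.9, 17.3 and 17.4 CPM in unbound libraries and was lower in bound libraries (log2 −0.64, SE 0.12, edgeR adjusted p = 0.00072). That call was lost with library totals in place of TMM (log2 −0.20, edgeR adjusted p = 0.18) and against a minimum of 1.5-fold. Slc17a9, the vesicular nucleotide transporter, reached at most 0.0801 CPM in a bound and 0.198 CPM in an unbound library, and Slc17a2 at most 0.0247 CPM in any. Slc17a1, Slc17a3 and Slc17a4 had 0 counts in all 7 libraries, where 3 counts would be 0.0480 to 0.0881 CPM.

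Of 9 other vesicular transmitter transporters and SV2 glycoproteins, 7 were tested, 4 were higher and 1 lower (median log2 0.84). Beside Slc32a1, Slc10a4 was higher, an orphan transporter known from vesicles of cholinergic and monoaminergic neurons (12.5, 8.28 and 6.76 CPM in bound against 0.147, 1.03, 0.0940 and 0.222 CPM in unbound libraries, log2 4.58, SE 0.58; 5.89 without unbound replicate 2). The SV2 genes were split. Sv2a, found on most vesicles, was higher (270, 247 and 302 CPM in bound against 164, 148, 153 and 146 CPM in unbound libraries, log2 0.84), Sv2c likewise (0.84), and Sv2b was lower, as given above.

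The vesicular proton pump powers the loading of glutamate and of GABA alike. Of 18 genes of the pump, its accessory proteins and vesicular ion exchangers, 13 were higher and none lower in bound libraries (median log2 0.54). Among the 5 that did not pass, named after their values were seen, were the pump subunit genes Atp6v1a (log2 −0.10), Atp6v1b2 (−0.01) and Atp6v0d1 (0.16) and the exchanger gene Clcn3 (0.08). With a length offset Atp6v0d1 was called lower (−0.30, edgeR adjusted p = 0.0097) and Clcn3 higher (0.87, edgeR adjusted p = 9.8e-07). Across the 3 alternative settings in which the lists were counted, as many as 18 genes of this list were called higher, so the count depends on the setting. Atp6v0c, the proteolipid ring subunit, had the largest rise (880, 798 and 889 CPM in bound against 287, 263, 294 and 284 CPM in unbound libraries, log2 1.60), and Atp6v1g2, a neuronal subunit, was at 0.88. Over all protein-coding genes the log2 difference falls with exon length, and the long Slc17a genes sit at a trend value of −0.15 to −0.09.

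Genes that supply glutamate or take it up were mostly lower. Of 12, 3 were higher and 8 lower (median log2 −0.93). Slc1a2, the main glutamate uptake transporter of astrocytes, had the largest fall (162, 164 and 145 CPM in bound against 2523, 2405, 1696 and 1715 CPM in unbound libraries, log2 −3.73). Slc38a1, a glutamine transporter of neurons including GABAergic ones, had the largest rise (252, 223 and 274 CPM in bound against 143, 135, 139 and 130 CPM in unbound libraries, log2 0.87).

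**Figure D5:**
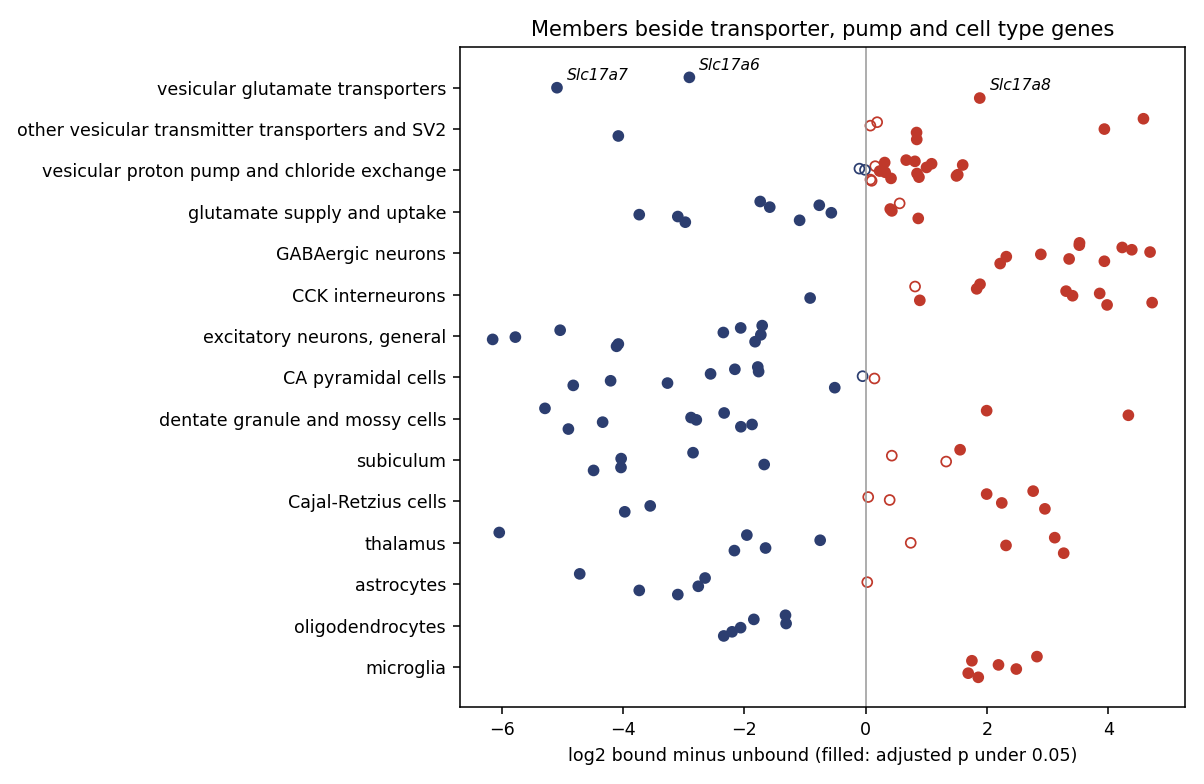
Log2 difference, bound minus unbound, of each tested gene in 15 groups of genes (points; filled where the adjusted p was under 0.05; red higher and blue lower in bound libraries). Slc17a7 (−5.09) and Slc17a6 (−2.90) lie on the side of the excitatory genes, as do 5 of 6 astrocyte and all 6 oligodendrocyte genes. Slc17a8 (1.88) lies on that of the GABAergic and most CCK interneuron genes. All 6 microglia genes lie there too, as do the proton pump and exchanger genes called higher (13 of 18) and some not called. The serotonin and cholinergic lists and the remaining Slc17 family are not shown.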

How the data were processed

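The deposited table holds read counts per gene that the authors did not normalize, for 3 bound and 4 unbound libraries. The submitters' processing notes name mm10 as the build, STAR 2.5.3a and, with no version, HTSeq. Which annotation and strand setting the counting used, and how it treated reads matching several places, is not given here. IDs were matched to GENCODE M21 (same assembly as mm10), which held 37693 of 39017, and unmatched IDs stayed in the tests.

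The main test was that of edgeR 4.0.16 (R 4.3.3): filterByExpr, TMM, and the quasi-likelihood test with robust estimation over all 19563 genes kept, with Benjamini-Hochberg adjustment. SEs were derived from the F statistic. DESeq2 1.42.0 was an alternative. Within-library ratios used a pseudocount of 0.5 counts on the log2 scale and an exact permutation test. Coding sequences were aligned with mafft 7.526.

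The genes and the 17 lists were chosen with earlier results of these data known. In each list the 2 most abundant genes and the largest rise and fall past the threshold are named, and any gene of lists of 6 or fewer, plus Gad2 and Slc32a1. For each transporter the 3 nearest profiles of at least 5 CPM are named (prior count 2). Slc18a3 was not analysed here, and a few genes that the rule picks are not reported here. Pairs of libraries of the same group varied 25.0 to 46.3 times as much as counting alone gives, except the 2 UBGS libraries, at 5.57 times. None was counted as a duplicate. Whether the 2 UBGS libraries share tissue or preparation is not given in the labels. At this depth counting error is small except for genes with few counts; beyond that, precision depends on how far libraries vary. A count of 0 allows 3 counts. The low-count filter, scaling, length, unbound series and each library were varied.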

Additional observations from a re-analysis of the deposited data

Results flagged for a closer look

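Of 83 quantities checked in the 4 unbound libraries, 8 had 1 library far from the others, where chance alone gives about 1 in 20. The log2 ratio of Slc17a8 to Slc17a6 counts was −1.55 in unbound replicate 1 and −2.98 to −2.92 in the other 3. Astn2 stood at 15.01 CPM in unbound replicate 1 and at 10.4 to 11.1 CPM in the others, and Zfp521 at 15.9 CPM against 9.90 to 10.7 CPM. In the same library Mog, a myelin gene, stood at 23.8 CPM against 19.3 to 20.02 CPM, and Fev at 0.0588 CPM against 0. C2cd4c stood at 11.7 CPM in unbound replicate 2 against 9.93 to 10.2 CPM in the others, and Slc10a4 at 1.03 CPM against 0.0940 to 0.222 CPM. Slc17a2 stood at 0.0247 CPM in unbound replicate 4 against 0 in the others. For Slc17a2 and Fev, with 1 and 2 counts, any count in a lone library meets the criterion, so these say nothing against the rate of 1 in 20.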

How the results depend on the processing

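The direction and call of Slc17a6, Slc17a7 and Slc17a8 were kept in all 16 alternatives run for each. With 1 library left out, Slc17a6 ranged from −4.06 to −2.46, Slc17a7 from −5.22 to −4.99 and Slc17a8 from 1.71 to 2.15. With library totals the median of all genes moved to 0.43 (−0.01 with TMM), calls became 9285 higher and 3704 lower, and Slc17a6, Slc17a7 and Slc17a8 stood at −2.45, −4.66 and 2.33. Against a minimum of 1.5-fold there were 6854 calls, 3246 higher and 3608 lower. With the UBS libraries alone as unbound, the ratios of Slc17a8 to Slc17a7 and to Slc17a6 differed by 7.02 and 4.99 on the log2 scale, and with the UBGS libraries alone by 6.99 and 5.70. With 1 library left out they ranged from 6.76 to 7.34 and from 4.76 to 6.10. None of these passes (adjusted p 0.0667 to 0.15), and with fewer libraries no exact permutation p can go under 0.0667. The fitted genes that the rule for names picks, together with Nts, number 70, and of their 1120 refits 1084 kept direction and call. Tph2 stood at −0.29 with UBGS alone. Gfap, which passes in 1 setting, stood at −0.0013 with RLE, −0.00092 with DESeq2, −0.12 with UBS alone and −0.19 to 0.21 with 1 library left out. A length offset moved Slc1a2 to −3.12, Slc38a1 to 1.66, Sncg to 3.84, Spink8 to −5.72, Reln to 3.96, C1qa to 2.04 and Cck to 0.16. Nts ranged from −0.49 to 1.88 with 1 library left out. No paired analysis was possible because the labels give bound and unbound libraries no shared number, animal or batch. Slc17a6 rested on 18 counts in bound replicate 3, which limits its precision there.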
